A study of Canis lupus familiaris with 39 samples.

Results

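The enzymes described here belong to the families that handle most drugs: the cytochromes P450 (CYP), the flavin-containing monooxygenases (FMO), the UDP-glucuronosyltransferases (UGT1 and UGT2), the cytosolic and microsomal glutathione S-transferases (GST and MGST) and the sulfotransferases (SULT). The rule uses gene names. A probeset, a group of short probes that reads 1 transcript, was taken when the array annotation gave it a single gene symbol starting with one of these names. This gave 103 of the 42860 probesets on the array, and 58 of the 15115 genes with a symbol. The CYP1 to CYP3 families had 13 genes (20 probesets), CYP4 had 6 (12), the other CYP families 18 (26), FMO 4 (7), UGT 2 (6), cytosolic GST 5 (12), MGST 2 (5) and SULT 8 (15). GSTK1, an enzyme of mitochondria and peroxisomes, is counted with the cytosolic GSTs. All 58 symbols matched the RefSeq gene table by gene identifier. A further 11 probesets name a member together with another gene, CYP3A12 among them, and are not described.

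RNA was taken from 10 organs of dogs, all labelled normal: brain (cerebrum), heart, jejunum, kidney, liver, lung, peripheral lymph node, pancreas, skeletal muscle and spleen. It was hybridised to Affymetrix Canine Version 2.0 arrays, 4 for each organ and 3 for pancreas, which makes 39. The methods give 4 donor dogs, 2 males and 2 females, 2 of them beagles and 2 of mixed breed, from 3 months to 6 years old. The labels number the arrays of an organ without tying a number to a dog, so sex, breed and age cannot be assigned to an array.

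Values are log2 signals and are relative within an array. The lowest and highest array medians were 3.95 and 4.11, so differences between values close to 4 are compressed. Each of the 39 arrays correlated best, over all probesets, with an array of its own organ. Of the fixed marker genes, the tests found higher 4 of 4 hepatocyte markers in liver, 4 of 5 kidney tubule markers in kidney, 4 of 4 enterocyte markers in jejunum, 3 of 3 alveolar markers in lung and 4 of 4 neuron markers in brain. A few arrays stood apart. Lung 1 and lung 3 differed by an SD of 0.196 (log2) over all probesets, against 0.323 for the next closest of the 57 pairs of arrays from 1 organ, so results in lung were also computed with those arrays averaged or left out. Whether they are 1 RNA hybridised 2 times was not tested. Lung would then have 3 separate arrays, and the standard errors in lung would be too small. ALB, the serum albumin gene made by hepatocytes, read 11.04 on lung 1, 11.09 on lung 3 and 10.81 on heart 2. It read 3.76 on lung 2 and 3.55 on lung 4, and 13.49 to 13.75 on the liver arrays. The mean of the 4 measured hepatocyte markers ran from 4.93 to 8.82 over the lung arrays, from 5.18 to 8.61 over the heart arrays and from 12.94 to 13.23 over the liver arrays. Skeletal muscle 1 differed from the other 3 skeletal muscle arrays by SDs of 0.823 to 0.844, the largest of the 57 pairs. Of 4 markers of pancreatic acinar cells, CPB1 and PNLIP were called higher in skeletal muscle, and the mean of the list ran from 3.70 on skeletal muscle 2 to 9.86 on skeletal muscle 4. The part of these transcripts in the results was not tested. The 58 genes had 75 calls of a gene as higher in an organ. Without heart 2, lung 1 and lung 3, those of CYP2S1 in pancreas and FMO4 in lung were lost, and with lung 1 and lung 3 as 1 array that of FMO4 in lung was lost. The member probesets called higher went from 54 to 53 in liver, 25 to 24 in kidney and 14 to 13 in lung without the 3 arrays. The shares of all probesets in that setting were not computed.

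Drug metabolism is commonly divided into steps. Oxidation, mostly by cytochromes P450 and FMOs in the endoplasmic reticulum, adds or exposes a reactive group. Conjugation by UGTs, SULTs or GSTs then attaches glucuronic acid, sulfate or glutathione, which makes the compound easier to excrete. The liver is known as the main site, with the intestine, kidney and lung as further sites. Many relatives in the same families act on bile acids, sterols, retinoids, fatty acids or steroid hormones rather than on drugs.

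Liver led these families. The moderated F test over the 10 organs (limma, called at a false discovery rate of 0.001) called 78 of the 103 member probesets, against 54.6% of all probesets. In a contrast of each organ with the mean of the other 9, 54 member probesets (52.4%) were called higher in liver, against 6.72% of all probesets. Kidney had 25 (24.3%, against 7.41%), jejunum 18 (17.5%, against 6.12%) and lung 14 (13.6%, against 7.26%). In the other organs members were called higher no more often than other probesets: 7 in pancreas (all probesets 13.4%), 6 in brain (all probesets 11.2%), and 2 each in heart (7.47%), lymph node (9.95%), skeletal muscle (7.06%) and spleen (5.38%). Pancreas depended on the scaling: after a shift by 12 housekeeping genes, which raised pancreas by 1.13 (log2), 47 member probesets were called higher there, against 63.3% of all probesets. In pieces of whole organ, fewer cells of a type and less RNA per cell cannot be told apart.

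**Figure D1:**
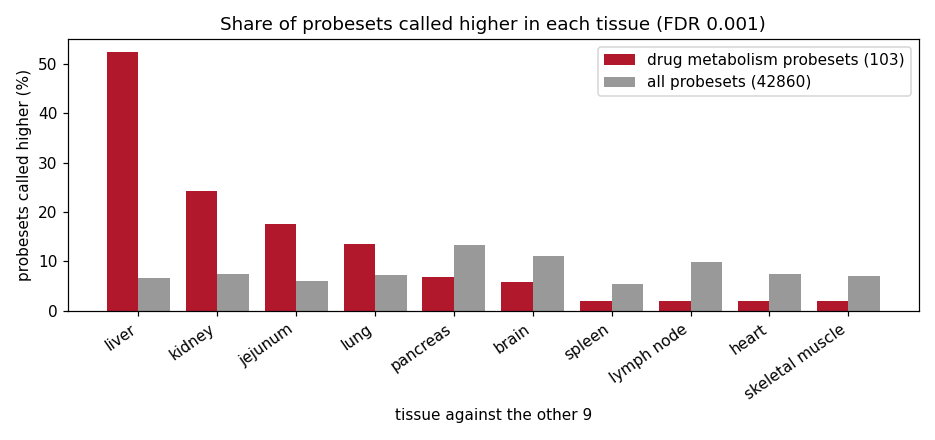
Percent of probesets called higher in each organ against the other 9 (limma, false discovery rate 0.001). Red bars are the 103 drug metabolism probesets and grey bars are all 42860 probesets; the red bar is the taller in liver (52.4% against 6.72%), kidney, jejunum and lung, and the shorter in the other 6 organs.

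A probeset called higher by more than 10-fold was named enriched. There were 34 enriched member probesets in liver (33.0% of members, against 1.71% of all probesets), 11 in kidney (10.7% against 1.07%), 10 in jejunum (9.71% against 0.842%), 5 in lung (4.85% against 0.614%), 3 in brain (2.91% against 1.74%), 2 in spleen (1.94% against 0.49%) and 1 in pancreas (0.971% against 0.439%). An enriched probeset with no other organ above 3-fold was named selective. These were 15 member probesets for liver (14.6% of members, against 0.744% of all probesets), 3 for brain (2.91% against 1.2%), 2 for lung (1.94% against 0.177%) and 1 for spleen (0.971% against 0.084%). Calls in the other direction were common outside the liver. Member probesets were called lower 31 times in skeletal muscle (30.1% of members, against 8.14% of all probesets), 30 times in lymph node (29.1% against 6.93%) and 29 times in brain (28.2% against 7.74%), but 2 times in liver (1.94% against 6.15%), both for the brain sulfotransferase SULT4A1. The count in skeletal muscle was 10 after the shift by housekeeping genes (2.32% of all probesets) and 17 without skeletal muscle 2, skeletal muscle 4 and spleen 3 (5.35% of all probesets). That setting kept skeletal muscle 1, the array that differed most, and skeletal muscle 3. Their Pearson's r of 0.8885 over all probesets was the lowest in the organ.

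Counted as genes, each by its probeset with the highest mean, 30 of 58 were called higher in liver (7.81% of all genes), 14 in kidney (8.92%), 10 in lung (8.59%) and 9 in jejunum (8.15%). Liver had the highest mean for 25 genes (43.1%, against 6.90% of all genes). The median difference between liver and the other 9 organs was 1.45 (log2) over the 58 genes and -0.07 over all genes. The genes also varied more between organs than genes at large: the range of the 10 organ means had a median of 4.32 for the 58 genes and 1.28 for all genes, and was 2 or more for 35 of the 58 (60.3%, against 34.0%). At the other end, 17 genes had every organ mean below 5 (29.3%, against 41.8% of all genes). Of the 58, 13 were called higher in liver and in no other organ (2.45% of all genes), 4 in liver and kidney (1.14%), 3 in liver, kidney and jejunum (0.569%), 3 in liver and lung (0.324%), and 12 in no organ (38.7%).

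**Figure D2:**
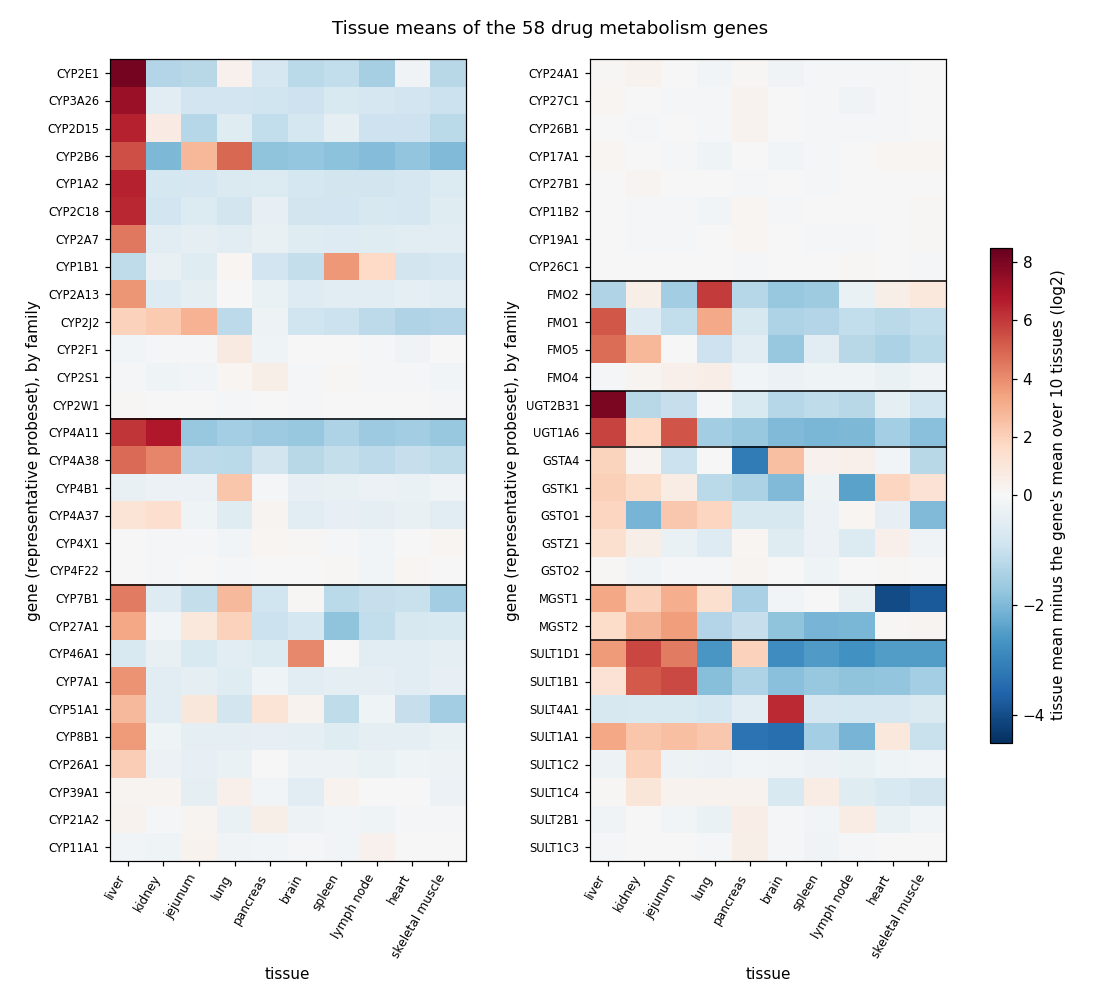
Mean of each organ minus the gene's mean over the 10 organs (log2, colour), for the 58 genes by their representative probeset. Lines separate the families, in the order CYP1 to CYP3, CYP4 and other CYP (which runs on to the right panel), then FMO, UGT, cytosolic GST, MGST and SULT; the liver column holds the highest mean of 25 genes.

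Among CYP1 to CYP3, the families that oxidise most drugs, 8 of 13 genes were enriched in liver, against 1.96% of all genes. CYP2E1, which oxidises ethanol and other small molecules, read 13.58, 13.49, 13.53 and 13.41 on the 4 liver arrays and from 3.60 to 7.94 on the other 35. The liver mean was 535-fold above the mean of the other 9 organs (difference 9.06 ± 0.51, limma standard error, adjusted p = 8.72e-16). The highest readings outside liver were 7.94 and 7.77 on lung 1 and lung 3 and 7.72 on heart 2, the same arrays on which ALB was high, while lung 2 and lung 4 read 3.60 and 3.61. Without those 3 arrays the CYP2E1 difference in liver was 9.39. CYP3A26, of the subfamily with the broadest drug substrates, read 11.43, 11.57, 11.38 and 11.31 in liver and no more than 4.30 elsewhere, a 279-fold difference (adjusted p = 1.87e-32). Neither gene's liver arrays came near those of another organ.

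CYP2D15, the canine member of the subfamily that oxidises many basic drugs, read 11.20, 11.03, 11.01 and 11.40 in liver. Kidney came next, at 5.04, 3.52, 6.05 and 6.66, and was 5.84 ± 0.37 below liver (adjusted p = 2e-14). The kidney contrast with the other organs did not pass (difference 0.75, adjusted p = 0.0457), although 3 of 4 kidney arrays lay above 5. CYP2C18, of a subfamily known for oxidising warfarin and anti-inflammatory drugs, read 11.11, 11.68, 10.55 and 9.65 in liver and from 3.30 to 4.15 elsewhere, a 136-fold difference. CYP1A2, which oxidises caffeine and aromatic amines, read 11.51, 10.66, 9.16 and 11.64 in liver and at most 3.96 elsewhere, a 157-fold difference (adjusted p = 1.98e-24). The 4 liver arrays of CYP1A2 had an SD of 1.14, against 0.18 for CYP2D15 and 0.07 for CYP2E1.

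CYP2A7 and CYP2A13 are neighbours in the RefSeq gene order, with no other protein-coding gene between them. CYP2A7 read 8.57, 8.04, 7.41 and 8.91 in liver and at most 3.48 elsewhere. CYP2A13 read 8.56, 9.60, 6.04 and 7.89 in liver, with an SD of 1.50, and at most 4.79 elsewhere. Both were selective for liver, by 31.4-fold and 17.8-fold, and their organ means had a Pearson's r of 0.99 over the 10 organs. The CYP2A13 probeset is of the kind that shares probes with related transcripts, so signal of close relatives cannot be set aside. The probesets described above for CYP2E1, CYP3A26, CYP2C18 and CYP1A2 have the same limit. Of the 103 member probesets 47 are of that kind and 3 more are marked as open to cross-hybridisation.

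CYP2B6, of a subfamily known for oxidising anaesthetics and cyclophosphamide, was not a gene of the liver alone. It read 11.21, 10.52, 10.94 and 11.10 in liver, 10.52, 9.11, 10.53 and 11.38 in lung, and 9.85, 6.76, 9.24 and 7.41 in jejunum. On the other 27 arrays it stayed between 3.36 and 4.03, kidney included, so the 3 organs did not overlap the rest. Liver and lung did not differ at this rate (difference 0.56 ± 0.40, adjusted p = 0.35), while lung lay 2.07 ± 0.40 above jejunum (adjusted p = 0.00017). The enrichment was 66.5-fold in liver and 43.3-fold in lung. The highest lung reading was on lung 4, where ALB was at 3.55, and the lung difference was 5.44 with all arrays and 5.30 without heart 2, lung 1 and lung 3. The second CYP2B6 probeset gave the same order, with means of 9.43, 9.23 and 7.01.

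CYP2J2, which forms epoxides of arachidonic acid, was spread over jejunum (7.26, 9.14, 6.51 and 8.45), kidney (5.74, 7.64, 6.83 and 8.22) and liver (6.64, 7.44, 6.17 and 7.07). The other arrays read at most 4.86. These 3 organs did not differ at this rate from their neighbours in the order of means (adjusted p = 0.27 and 0.8), and liver lay 2.16 ± 0.44 above pancreas, the next organ (adjusted p = 0.00022). It was called higher in each of the 3, by 9.68-fold, 5.51-fold and 4.45-fold.

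CYP1B1, which oxidises estradiol and polycyclic aromatic hydrocarbons, was the one member led by spleen. The spleen arrays read 9.19, 8.26, 6.63 and 9.32, the lymph node arrays 8.02, 5.96, 4.35 and 6.84, and lung 4 read 7.53 while the other lung arrays read 3.40 to 4.14. Spleen was 17.5-fold above the other organs (difference 4.13 ± 0.47, adjusted p = 3.34e-08). The groups overlapped, and spleen did not differ from lymph node at this rate (difference 2.05 ± 0.63, adjusted p = 0.031). The second probeset had the same order and was selective for spleen. Macrophage markers were called higher in spleen for 3 of 3 genes (array means of the list 8.81 to 9.77). Smooth muscle markers were called higher there for 3 of 4 (8.90 to 10.37) and lymphocyte markers for 3 of 4 (5.47 to 8.02). In lymph node the counts were 2 of 3, 0 of 4 and 4 of 4. In liver, where the first CYP1B1 probeset had its lowest mean, macrophage markers were called higher for 2 of 3 (7.47 to 8.88). Smooth muscle markers were called higher for 3 of 4 in jejunum and in lung, where that probeset averaged 4.08 and 4.79. The part of these cell types in the CYP1B1 signal was not tested.

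The remaining genes of these families were low. CYP2F1, known from the lung, had a mean of 4.55 in lung and 3.63 in its lowest organ, and all 3 of its probesets were called higher in lung. CYP2S1 ranged over 0.69 and was highest in pancreas, and its second probeset was highest in lung. CYP2W1 was the flattest gene by its representative probeset, with organ means that spanned 0.15 and 39 arrays between 3.56 and 3.91.

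**Figure D3:**
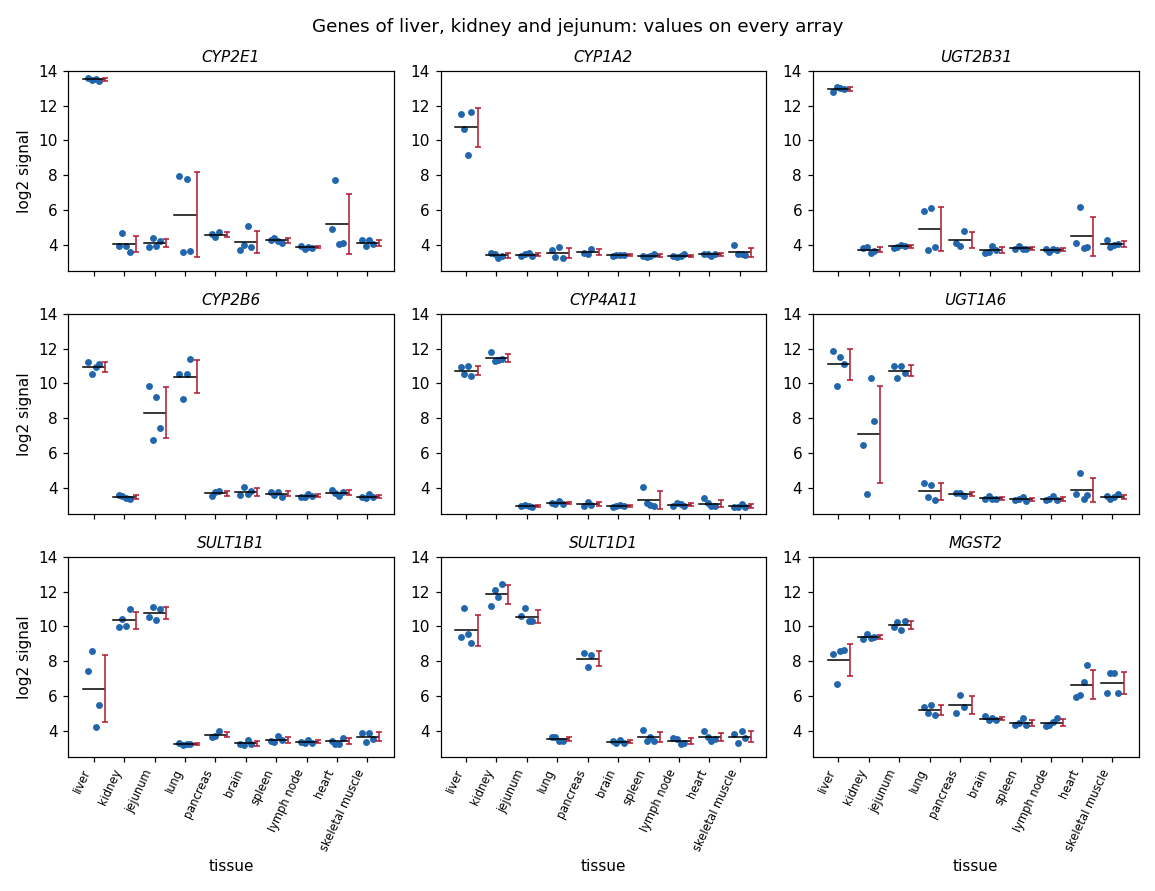
Log2 signal of 9 genes on every array, by organ. Points are arrays (4 per organ, 3 in pancreas), black lines are organ means and red bars are 1 SD on either side; CYP2E1, CYP1A2 and UGT2B31 rise in liver, with CYP2E1 and UGT2B31 above the rest on lung 1, lung 3 and heart 2, and the other 6 genes share their signal between liver, kidney, jejunum, lung or pancreas.

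The CYP4A genes, which hydroxylate fatty acids at the far end of the chain, were shared by kidney and liver. CYP4A11 read 11.81, 11.28, 11.32 and 11.41 in kidney and 10.95, 10.56, 11.00 and 10.43 in liver, where the other organs averaged near 3. Kidney was 188-fold and liver 108-fold above the other organs, and kidney lay 0.72 ± 0.15 above liver (adjusted p = 0.00071). The second CYP4A11 probeset, with means of 7.46 in kidney and 6.04 in liver, was called higher in both and enriched in kidney alone. On that probeset kidney lay 1.42 ± 0.37 above liver (adjusted p = 0.0057), which did not pass. CYP4A38 had the opposite order, with 9.89, 9.04, 9.29 and 9.77 in liver and 8.76, 9.07, 8.28 and 9.25 in kidney, but these did not differ at this rate (difference 0.66 ± 0.15, adjusted p = 0.0016). No other array read above 4.03 for CYP4A38.

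CYP4A37 showed how much the probeset matters. The probeset with the highest overall mean read 7.30, 6.93, 6.42 and 5.91 in kidney and 6.45, 5.79, 6.41 and 6.77 in liver, over 4.39 to 5.61 elsewhere, and was called higher in both, by 3.06-fold and 2.45-fold. The other 2 probesets had kidney means of 10.76 and 10.55 and liver means of 9.69 and 10.01, and were enriched in both organs, by 120-fold and 62.7-fold in kidney. The one with the kidney mean of 10.55 is among those marked as open to cross-hybridisation. The 3 CYP4A genes stand side by side in the RefSeq gene order, followed by CYP4B1.

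CYP4B1 did not share that pattern. One probeset read 5.80, 3.69, 6.18 and 9.21 in lung, and no other organ had a mean above 3.76. Lung was called higher by 6.27-fold (difference 2.65 ± 0.38, adjusted p = 1.56e-06), but 1 of the 4 lung arrays lay at the level of the other organs. The second CYP4B1 probeset did not rise in lung: its means spanned 0.57 and pancreas was highest, at 3.78. CYP4X1 and CYP4F22 spanned 0.33 and 0.30. The 39 arrays of CYP4F22, the flattest CYP4 gene, lay between 3.43 and 4.04.

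Among the other CYP families, CYP7A1 and CYP8B1 of bile acid synthesis were highest in liver. CYP7A1, the rate-limiting enzyme of the classic pathway, read 9.45, 10.21, 6.41 and 4.28 in liver and 3.10 to 3.73 elsewhere. The liver mean was 19.2-fold above the other organs (difference 4.26 ± 0.46, adjusted p = 4.29e-09), and its SD of 2.75 was the largest of any gene in an organ where it was called higher. CYP8B1, which steers the pathway to cholic acid, read 8.60, 7.81, 5.81 and 8.19 in liver and at most 3.97 elsewhere, 15.9-fold higher. Both were selective for liver, and even their lowest liver array lay above every other array.

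CYP27A1 and CYP7B1, of the alternative bile acid pathway, were shared with lung. CYP27A1 read 10.23, 8.96, 9.98 and 10.94 in liver and 8.83, 8.25, 8.73 and 9.06 in lung, both above all other arrays, of which the highest read 8.04. Its second probeset spanned 0.24 and showed no such pattern. CYP7B1 read 10.94, 10.66, 9.97 and 9.50 in liver and 9.14, 8.61, 8.32 and 8.42 in lung. Liver was enriched for both genes, by 12.6-fold and 30.3-fold, and lung was called higher by 4.60-fold and 8.54-fold. Liver and lung did not differ at this rate for CYP27A1 (difference 1.31 ± 0.41, adjusted p = 0.016) or CYP7B1 (1.64 ± 0.50, adjusted p = 0.013). On lung 2 and lung 4, where ALB was low, CYP27A1 read 8.25 and 9.06 and CYP7B1 read 8.61 and 8.42. CYP39A1, a further oxysterol hydroxylase of bile acid synthesis, was called higher in no organ, with its highest mean in lung (4.39) and 4.23 in liver.

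CYP51A1, a demethylase of cholesterol synthesis, read 9.97, 11.19, 10.05 and 10.30 in liver, above every other array. Pancreas followed at 8.87, 8.96 and 8.55 and jejunum at 7.93, 9.03, 7.65 and 9.66. Liver was called higher by 8.44-fold (adjusted p = 3.5e-10), while on this probeset liver and pancreas did not differ at this rate (difference 1.58 ± 0.42, adjusted p = 0.0039). A second CYP51A1 probeset, with means of 7.75 in liver and 5.19 in pancreas, was selective for liver. The third had its highest mean in liver, at 4.86, and was called higher in no organ. CYP26A1, which clears retinoic acid, read 6.26, 4.40, 5.41 and 6.85 in liver and at most 3.82 elsewhere, 4.96-fold higher (adjusted p = 3.88e-12).

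CYP46A1, the enzyme that turns over cholesterol in neurons, was the brain member of the P450s. It read 8.18, 9.84, 7.70 and 8.73 in brain and from 3.65 to 5.09 on the other 35 arrays. The difference was 4.56 ± 0.19, or 23.6-fold (adjusted p = 8.13e-20). Its second probeset was also called higher in brain, with a mean of 5.25.

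The P450s of steroid hormone and vitamin D metabolism gave little signal in these organs. Adrenal gland and gonad are not among the organs, but kidney is, where CYP24A1 and CYP27B1 averaged 3.98 and 3.62. The cause of the low signal was not tested. CYP11A1, CYP11B2, CYP17A1, CYP19A1, CYP21A2 and CYP24A1 were called higher in no organ, and their organ means spanned 0.23 to 0.79. CYP11A1 ranged from 4.36 to 6.07 over the 39 arrays. CYP26C1 was the flattest of the group, with means that spanned 0.16 and arrays from 3.35 to 3.76. CYP27B1, CYP26B1 and CYP27C1 passed a contrast, in kidney, pancreas and pancreas, with organ means that spanned 0.32, 0.37 and 0.44.

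The FMOs oxidise nitrogen and sulfur atoms of drugs without a heme group. FMO1 read 10.10, 9.86, 10.36 and 10.34 in liver, 59.7-fold above the other organs (difference 5.90 ± 0.34, adjusted p = 1.32e-15). In lung it read 9.06, 5.51, 9.12 and 8.64, 12.0-fold above the other organs, and liver lay 2.08 ± 0.46 above lung (adjusted p = 0.00058). Lung 4 read 8.64 with ALB at 3.55, and lung 2 lay below the highest array of the other organs, at 5.70. Without heart 2, lung 1 and lung 3 the lung difference was 2.58 in place of 3.58 (adjusted p = 3.05e-05), below 10-fold. Kidney was low, with a mean 3.81 ± 0.46 below lung.

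FMO2, its neighbour in the gene order, had another pattern. It read 11.04, 9.30, 11.12 and 11.74 in lung, 95.9-fold above the other organs (difference 6.58 ± 0.57, adjusted p = 8.6e-11), and was selective for lung with both probesets. No other organ was called, but single arrays were far apart: 5.72, 4.64, 4.91 and 7.85 in skeletal muscle, 4.33, 3.08, 7.57 and 6.48 in kidney, and 4.79, 3.47, 6.49 and 6.68 in heart. In liver and brain the means were low, and FMO2 was the only FMO with its highest mean in lung and a range of 2 or more.

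FMO5 read 10.70, 10.92, 9.58 and 9.10 in liver and 8.88, 8.17, 7.10 and 8.57 in kidney. Liver was enriched by 37.8-fold, kidney was called higher by 8.80-fold, and the organs differed by 1.89 ± 0.40 (adjusted p = 0.0005). All 3 of its probesets had the same highest organ. FMO4 was the flattest, with means from 3.66 to 4.50, highest in lung, and arrays from 3.44 to 4.96.

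**Figure D4:**
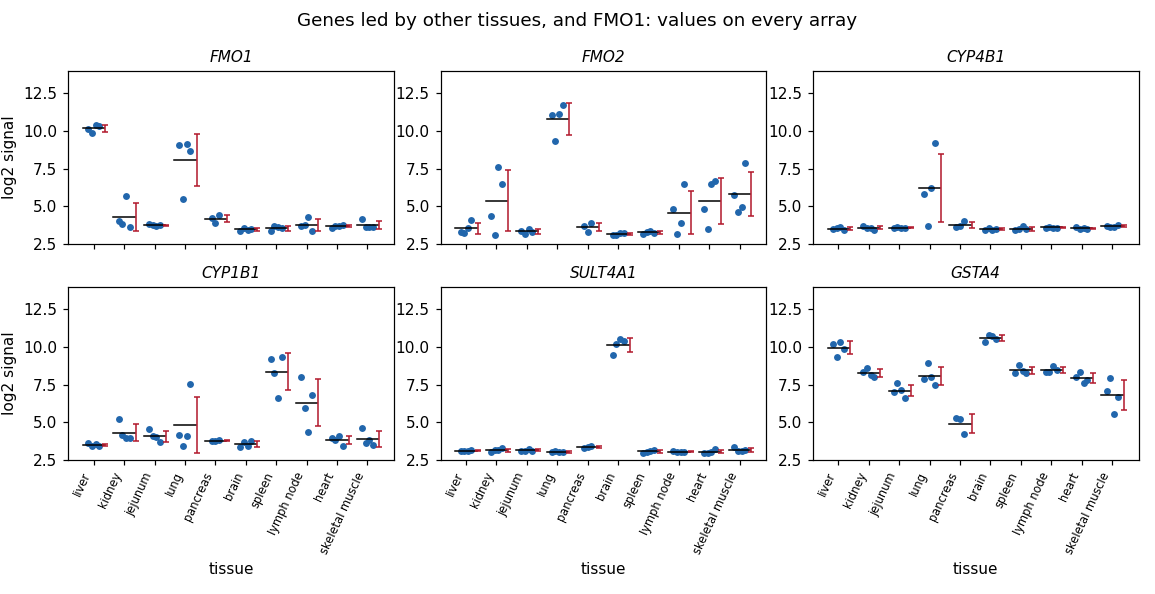
Log2 signal of FMO1, FMO2, CYP4B1, CYP1B1, SULT4A1 and GSTA4 on every array, by organ. Points are arrays, black lines are organ means and red bars are 1 SD on either side; lung arrays of FMO1 and CYP4B1 and spleen and lymph node arrays of CYP1B1 are wide apart, while the brain arrays of SULT4A1 and GSTA4 lie close together.

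Of the UGTs, which attach glucuronic acid, both genes with a symbol of their own were enriched in liver. UGT2B31 read 12.79, 13.06, 13.02 and 12.94 in liver, 478-fold above the other organs (difference 8.90 ± 0.29, adjusted p = 2.5e-22), and each of its 3 probesets was selective for liver. Outside liver its highest readings were 6.17 on heart 2, 5.92 on lung 1 and 6.09 on lung 3, while lung 2 and lung 4 read 3.71 and 3.86. These are again the arrays with ALB.

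UGT1A6, which conjugates simple phenols, was shared by liver and jejunum. It read 11.84, 9.87, 11.53 and 11.09 in liver and 11.00, 10.33, 11.00 and 10.59 in jejunum. On this probeset the organs did not differ at this rate (difference 0.35 ± 0.67, adjusted p = 0.86), and were enriched by 81.4-fold and 62.0-fold. Kidney arrays were spread over 6.45, 3.66, 10.31 and 7.84, an SD of 2.77, and kidney was not called (adjusted p = 0.00507). The other 2 probesets put jejunum lower, at 5.94 and 7.14, against 8.18 and 9.52 in liver. Liver lay above jejunum by 2.24 ± 0.54 on the former (adjusted p = 0.0019), which did not pass, and by 2.39 ± 0.53 on the latter (adjusted p = 0.00086), which did.

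The 8 SULT genes, which attach sulfate, had their highest means in 6 different organs. SULT1A1, the main phenol sulfotransferase, read 11.74, 10.93, 11.17 and 11.99 in liver, 10.80, 10.87, 9.88 and 11.53 in jejunum, 10.49, 10.16, 11.39 and 10.07 in kidney, and 10.60, 9.99, 10.61 and 10.87 in lung. All 4 organs were called higher, by 12.3-fold, 7.24-fold, 6.01-fold and 5.96-fold, and no neighbours among them differed at this rate. SULT1B1, which sulfates thyroid hormones, read 10.53, 11.12, 10.39 and 11.01 in jejunum and 9.94, 10.40, 10.05 and 11.01 in kidney, enriched by 74.3-fold and 54.0-fold. Its liver arrays read 7.41, 8.57, 4.23 and 5.50, which lay 3.92 ± 0.46 below kidney (adjusted p = 3.4e-08).

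SULT1D1, the neighbour of SULT1B1 in the gene order, read 11.16, 12.11, 11.69 and 12.42 in kidney, 10.62, 11.04, 10.31 and 10.28 in jejunum, 9.41, 11.06, 9.56 and 9.03 in liver and 8.44, 7.64 and 8.33 in pancreas. Kidney was enriched by 80.0-fold and lay 1.28 ± 0.28 above jejunum (adjusted p = 0.0009). Pancreas was 4.48 ± 0.31 above skeletal muscle, the next organ (adjusted p = 1.8e-13). On the second probeset kidney lay 1.01 ± 0.27 above jejunum (adjusted p = 0.0059), which did not pass. That probeset put pancreas, at 9.13, above liver, at 8.43, and was enriched in pancreas. SULT1D1 was the only member called higher in pancreas with a range of organ means of 2 or more. SULT1C2 was called higher in kidney alone, at 4.66, 5.72, 4.59 and 6.57 against at most 3.47 elsewhere, 4.47-fold. SULT1C4 read 5.46 on average in kidney and its means spanned 1.85. SULT1C3, the third gene of that run and the flattest SULT, had arrays between 3.45 and 4.35.

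SULT4A1, a sulfotransferase-like protein of neurons, read 9.48, 10.22, 10.55 and 10.37 in brain and from 2.97 to 3.41 on the other 35 arrays. The difference was 7.04 ± 0.09, or 132-fold (adjusted p = 9.37e-34). Both probesets were selective for brain. SULT2B1, which sulfates cholesterol, was called higher in lymph node by both of its probesets, but its means spanned 0.92 and stayed below 5.

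The GSTs grouped here as cytosolic, which attach glutathione, were broader: none of the 5 genes was enriched in any organ. GSTA4, which removes lipid aldehydes, read 10.33, 10.77, 10.71 and 10.51 in brain and 10.19, 9.34, 10.33 and 9.89 in liver. It was called higher in both, by 7.01-fold and 4.27-fold, and the organs did not differ at this rate (difference 0.64 ± 0.33, adjusted p = 0.16). Its lowest mean was in pancreas. GSTK1, of mitochondria and peroxisomes, read 10.60, 10.24, 10.82 and 10.57 in liver, 10.33, 10.32, 10.23 and 10.63 in heart, 10.33, 9.68, 10.16 and 10.10 in kidney and 9.96, 9.71, 9.58 and 9.84 in skeletal muscle. It was the only member gene called higher in heart or in skeletal muscle. The skeletal muscle call was lost without skeletal muscle 2, skeletal muscle 4 and spleen 3 (difference 1.37, adjusted p = 0.00461), and the kidney call was lost after the shift by housekeeping genes (1.15, adjusted p = 0.00259).

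GSTO1 read 10.81, 11.08, 10.20 and 11.37 in jejunum, 10.24, 10.69, 10.43 and 10.32 in liver and 10.54, 10.13, 10.60 and 10.30 in lung, and these 12 arrays lay above the other 27, which reached 8.96. It was called higher in each, by 5.90-fold, 4.19-fold and 4.11-fold. Its neighbour GSTO2 was the flattest GST, with arrays from 3.29 to 3.95. GSTZ1, an enzyme of tyrosine breakdown, averaged 5.66 in liver, and its means spanned 1.97.

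The microsomal MGST1 and MGST2 were highest in liver and jejunum. MGST1 read 11.95, 12.04, 12.35 and 11.37 in liver and 11.85, 11.50, 11.86 and 11.56 in jejunum, with 10.89, 10.89, 10.44 and 10.19 in kidney. Liver and jejunum were enriched by 12.6-fold and 10.5-fold. Kidney was called higher by 4.55-fold (adjusted p = 0.000384), a call that was lost when any 1 of the 4 kidney arrays was left out (adjusted p = 0.00133 to 0.0039). Lymph node 4 read 10.41 while the other lymph node arrays read 6.35 to 8.29. MGST2, which can form leukotriene C4, read 9.95, 10.23, 9.80 and 10.31 in jejunum, 9.30, 9.59, 9.34 and 9.36 in kidney and 8.41, 6.71, 8.60 and 8.63 in liver. Jejunum was enriched by 15.4-fold and did not differ from kidney at this rate (difference 0.67 ± 0.34, adjusted p = 0.21).

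In direct comparisons of the 4 main organs, members were called higher in liver more often than probesets at large. In the other direction, the shares in jejunum and lung were near or below those of all probesets. Liver exceeded jejunum for 37 member probesets (35.9% of members, 4.98% of all probesets), and jejunum exceeded liver for 6 (5.83% of members, 5.43% of all probesets), those of SULT1B1, MGST2 and SULT1D1. Liver exceeded kidney for 32 (31.1% of members, 3.75% of all probesets), and kidney exceeded liver for 8 (7.77% and 5.12%), of SULT1B1, SULT1D1, SULT1C2, CYP4A11 and CYP4A37. Liver exceeded lung for 49 (47.6% and 5.68%), and lung exceeded liver for 6 (5.83% and 7.58%), of FMO2, CYP4B1 and CYP2F1. The last count was 3 without heart 2, lung 1 and lung 3. The share of all probesets in that setting was not computed, so the change cannot be read as a result about the members.

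Kidney and jejunum were closer. Kidney exceeded jejunum for 11 member probesets (10.7% of members, 5.29% of all probesets), from the CYP4A genes, CYP2D15, FMO5, SULT1C2 and SULT1D1, and jejunum exceeded kidney for 5 (4.85% and 4.13%), of CYP2B6, UGT1A6 and GSTO1. Kidney exceeded lung for 21 (20.4% and 5.86%) and lung exceeded kidney for 12 (11.7% and 5.23%). Jejunum exceeded lung for 14 (13.6% and 4.14%) and lung exceeded jejunum for 10 (9.71% and 5.08%). The last count was 6 without heart 2, lung 1 and lung 3, where the share of all probesets was not computed either.

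The spread between liver arrays differed from gene to gene. Over the 30 genes called higher in liver, the SD of the 4 arrays ran from 0.07 for CYP2E1 to 2.75 for CYP7A1. CYP3A26 and UGT2B31 were near the lower end, with SDs of 0.11 and 0.12. CYP2E1 and UGT2B31 lie near the top of the range of the arrays, whose highest value was 14.74, and the part of that limit in their small SDs was not tested. Liver 3 was the lowest array for CYP2A13, CYP8B1, CYP1A2 and CYP2A7, liver 4 was the lowest for CYP7A1, FMO5, CYP2C18 and CYP7B1, and liver 2 was the lowest for UGT1A6, CYP27A1, CYP26A1 and MGST2. Over the 30 genes, liver 1 was the lowest for 3, liver 2 for 11, liver 3 for 7 and liver 4 for 9.

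**Figure D5:**
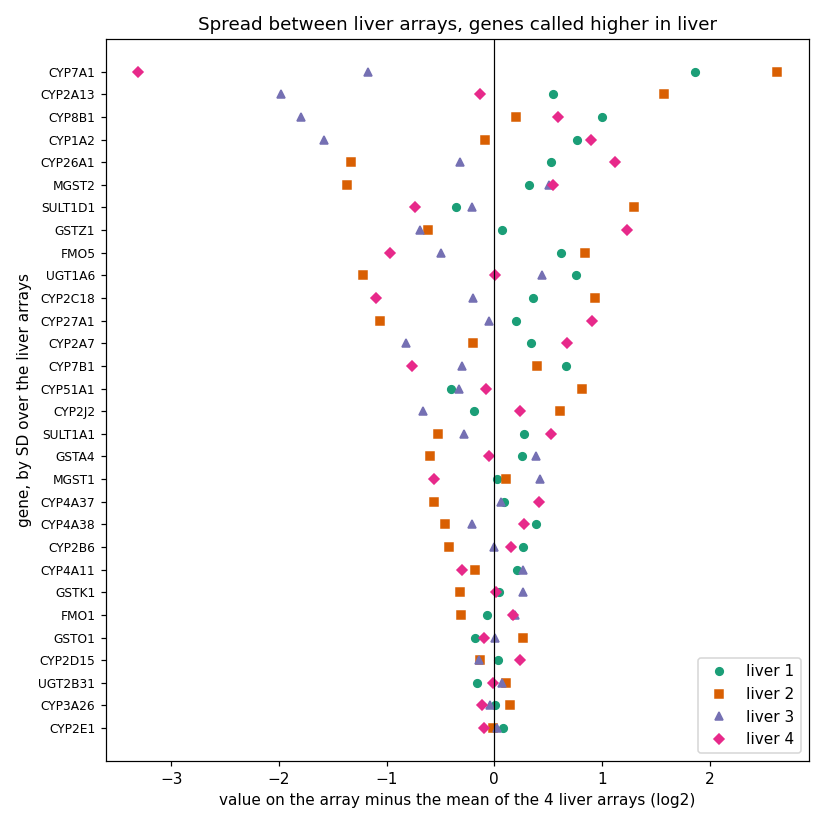
Value on each of the 4 liver arrays minus their mean (log2), for the 30 genes called higher in liver, sorted by the SD of the 4 arrays. CYP7A1 at the top spans from 4.28 to 10.21 in absolute signal, CYP2E1 at the bottom from 13.41 to 13.58, and the array that lies lowest changes from gene to gene.

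Genes that the enzymes depend on were examined from lists. Of 5 measured electron transfer partners, 3 were called higher in liver (7.81% of all genes), with a list median of 0.77 (log2) against -0.07 for all genes. POR, the reductase that passes electrons to the microsomal P450s, averaged 9.33 ± 0.48 in liver (SD, n = 4) and was 4.02-fold above the other organs (adjusted p = 2.62e-09), with jejunum next at 8.58 ± 0.35. Of 11 genes for cofactors and heme, 6 were called higher in liver, with a median of 1.22. UGDH, which makes the sugar donor of the UGTs, averaged 9.05 ± 0.58 in liver and 7.74 ± 0.63 in jejunum, the organs that led UGT1A6. ALAS1, the first enzyme of heme synthesis, averaged 11.03 ± 0.97 in liver. PAPSS1 and PAPSS2, which make the sulfate donor, were led by brain (8.66 ± 0.24) and jejunum (6.84 ± 0.71).

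Of 9 measured regulators, 4 were called higher in liver, with a median of 0.69. In lung, lymph node and spleen 0 were called higher and 3 lower, and in brain 0 and 4. The shares of all genes called lower were not computed, so these lower counts cannot be read as a result about the regulators. The nuclear receptor NR1I3, a sensor of foreign compounds that controls CYP2B genes, averaged 7.88 ± 0.36 in liver, 6.80 ± 0.42 in jejunum and 4.75 ± 0.39 in kidney. In lung, where CYP2B6 was enriched, NR1I3 averaged 3.57 ± 0.046 and was called lower. The bile acid receptor NR1H4 averaged 10.00 ± 0.62 in liver, 8.76 ± 0.92 in jejunum and 8.19 ± 0.26 in kidney. RXRA and ARNT spanned 0.16 and 0.46. Of 19 other drug metabolizing enzymes, 14 were called higher in liver, 11 in kidney (8.92% of all genes), 8 in jejunum (8.15%) and 6 in lung (8.59%), with a liver median of 2.45. CES1 and CES2, which hydrolyse esters, were led by liver (12.72 ± 0.12) and kidney (11.40 ± 0.13). GLYAT, which conjugates glycine, averaged 9.95 ± 0.51 in kidney, 87.9-fold above the other organs (adjusted p = 1.83e-29), and 3.49 ± 0.14 in liver, where it was called lower.

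Probesets of the same gene mostly had the same leading organ. Of the 31 genes with several probesets, 23 had the same highest organ in all of them. The other 8 were CYP11A1, CYP17A1, CYP2S1, CYP4X1, GSTO2 and SULT1C3, all with ranges under 2, and CYP27A1 and CYP4B1, where one probeset ranged over 5.11 and 2.75 and the other over 0.24 and 0.57. Every probeset had a range of 2 or more for 15 of the 31 genes.

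Genes that stand side by side in the RefSeq gene order had like or unlike profiles. Pearson's r between the 10 organ means, each point being the same organ of the same arrays, was 0.99 for CYP4A38 and CYP4A11 and 0.89 for SULT1B1 and SULT1D1. Whether probesets of close relatives such as the CYP4A genes share signal was not tested. The r was 0.37 for FMO1 and FMO2, -0.18 for CYP4A11 and CYP4B1, -0.04 for CYP2A13 and CYP2F1, and 0.00 for CYP2S1 and CYP2B6. The organ means of CYP2F1 and CYP2S1 spanned 0.92 and 0.69 at low signal, and CYP2S1 did not pass the F test. An r with either of them says little about how alike the neighbours are. The order comes from another genome assembly than the one behind the array, so no positions are given.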

How the data were processed

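RNA of 10 canine organs was measured on 39 Affymetrix arrays, grouped by the tissue label. The authors deposited log2 signals. Per the methods, Partek corrected probes for their GC content and sequence, removed background by RMA, set arrays to equal quantiles and summarised probes by median polish. No scan date was given in the labels. Values were used as deposited. In limma (version 3.58.1, R version 4.3.3) a mean per organ was fitted to all 42860 probesets. Contrasts (each organ against the other 9, and 45 pairs) and the moderated F test were adjusted by Benjamini-Hochberg over all probesets and called at 0.001. Folds are 2 to the power of the log2 difference. Each probeset has 1 estimate of the spread, pooled over the arrays of all 10 organs, and the p-values and standard errors rest on it. They do not measure the spread in the named organ, and can be too small where its arrays lie wider apart. The SD there was 2.75 for CYP7A1 in liver, 2.27 for CYP4B1 in lung and 0.47 for SULT4A1 in brain. The number of arrays of an organ limits the precision. The fit was tested on simulated data. Members and lists were chosen with earlier results of these data known. A gene is represented by its probeset with the highest mean. Named are a fixed list of drug metabolism genes, genes enriched in some organ, the flattest gene of each family and genes whose probesets differ in leading organ. Alternatives were another variance estimate, a replicate block, shifts by 12 housekeeping genes or by the median, removal of dim probesets, another rate, reference, unit or representative, and fewer arrays. Those on lung 1, lung 3 and heart 2 were added after seeing the data. Sequences were not used here.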

Additional observations from a re-analysis of the deposited data

Results flagged for a closer look

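In 62 groups of 4 arrays (a gene in an organ where it was called higher), the lowest or highest array was compared with the others by Dixon's ratio, the gap to the nearest array over the whole range. Chance takes about 1 of 20 groups past Dixon's critical value, and 2 groups passed it. FMO1 in lung had a ratio of 0.867: lung 2 read 5.51 and the other lung arrays 8.64 to 9.12. MGST2 in liver had a ratio of 0.886: liver 2 read 6.71 and the other liver arrays 8.41 to 8.63.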

How the results depend on the processing

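Counted as genes by their representative probeset in place of probesets, 45 passed the F test, and those called higher were 3 in brain, 1 in heart, 9 in jejunum, 14 in kidney, 30 in liver and 1 each in lymph node, skeletal muscle and spleen. Genes called lower were 1 in liver, 17 in skeletal muscle, 17 in lymph node and 16 in brain. Enriched genes were 5 in jejunum, 4 in kidney, 21 in liver, 3 in lung, 0 in pancreas and 1 in spleen, and selective genes were 1 for lung and 0 for spleen. For these gene counts, shares of all genes were computed only for higher in liver, kidney and jejunum and for enriched in liver, as given above. The other gene counts cannot be read as a result about the members. At a false discovery rate of 0.05, member probesets called higher were 5 in heart, 5 in lymph node, 16 in pancreas and 4 in skeletal muscle, those lower were 4 in liver and 44 in brain, jejunum exceeded kidney for 8, kidney exceeded jejunum for 21 and kidney exceeded liver for 14. The shares of all probesets called at that rate were not computed, so these larger counts cannot be read as a result about the members.

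After the housekeeping shift, 0 were higher in lymph node and 47 in pancreas (63.3% of all probesets), 1 was lower in liver and 10 in skeletal muscle, and 2 were enriched in pancreas. It ended the kidney calls of MGST1 (1.63, adjusted p = 0.00475) and GSTK1 (1.15, adjusted p = 0.00259). With dim probesets removed, 1 was higher in lymph node, 2 in pancreas, and 3 were higher in lung than in liver. Against the median of the other organs, 2 were enriched in pancreas, and 0 were selective for lung and 0 for spleen. The count higher in skeletal muscle was 1 with the ordinary variance, 1 with the median shift and 1 without heart 2, lung 1 and lung 3. Without skeletal muscle 2, skeletal muscle 4 and spleen 3 it was 0, with 17 lower, and the skeletal muscle call of GSTK1 was lost (1.37, adjusted p = 0.00461). That setting kept skeletal muscle 1, the array that differed most, and skeletal muscle 3. Without heart 2, lung 1 and lung 3, lung exceeded jejunum for 6 and liver for 3. The cause of these changes was not tested. Where no share of all probesets is given for a setting here or above, it was not computed. Such a changed count cannot be read as a result about the members.

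Leaving out each array in turn gave 74 to 80 for the F test and 52 to 56 higher in liver. Counts of 2 or fewer moved most: 1 to 4 higher in lymph node (without lung 4 or lymph node 4), 1 to 2 in skeletal muscle (without its arrays 2, 3 or 4), 0 to 1 enriched in pancreas (without pancreas 3), 1 to 2 enriched in spleen (without spleen 1 or 4) and 0 to 2 selective for spleen (without lung 4, lymph node 1, 2 or 3, or spleen 1 or 4). Of 63 calls of a gene as higher in an organ, those of the 35 genes with a range of organ means of 2 or more, 62 held without each array. The exception was MGST1 in kidney, with differences of 2.09 to 2.32 without 1 kidney array. No call was reversed. With a replicate block, 78 members passed the F test, no count moved by over 1.5 times and all 63 calls held. Same-numbered arrays of different organs had deviations with a mean correlation of 0.13 over 171 pairs, 101 of them over 0.1, against -0.04 over 513 pairs with different numbers, 70 of them over 0.1. Of 39 arrays, 30 correlated best with their own number, a hint from the data that a number may follow a dog. The labels do not say so, and not every pair was over 0.1.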

Other observations

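SCGB1A1, the marker of airway club cells, read 12.16 to 12.84 on the 4 lung arrays, while CYP4B1 on the same arrays read 3.69 to 9.21. SCGB1A1 also read 6.73 to 8.54 on the pancreas arrays.

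The kidney arrays of UGT1A6 differed in the same way on every probeset of the gene. Kidney 3 was the highest on all of them, at 10.31, 7.87 and 6.77. Kidney 2 was the lowest, at 3.66, 3.44 and 3.24.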
